A study of Homo sapiens with 42 samples.

Results

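The genes described here had a higher mean signal at every time measured after an shRNA against BMI1 was switched on in RPMI-8226, an established human multiple myeloma line (a cancer of plasma cells). They were selected on measured values. A probe set had to be annotated to a single gene symbol and to have a mean signal of at least 100 in doxycycline-treated Bmi1-shRNA cells at 24, 32 and 48 h. The ratio of the dosed to the undosed group mean had to be at least 1.2 at each of these 3 times in that line. The mean of the 3 ratios had to lie between 0.85 and 1.18 in the Ctl-shRNA line. A short set of named genes, and the MRP, NDUF, ATP5, PSM and HIST families, had been set aside; of these, only 2 probe sets of BCL2L11 met the limits. The rule found 38 probe sets of 32 genes among 41091 single-symbol probe sets of 19775 genes. Of those, 12699 probe sets of 7843 genes reached the signal limit.

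RNA was read on Affymetrix U133 Plus 2 arrays, where a probe set is a group of probes for a transcript and its signal is a linear brightness scaled per array. Each line was stably infected with an inducible hairpin, Bmi1-shRNA or Ctl-shRNA, and every cell was RPMI-8226 in low-serum medium. Each line was read without doxycycline and with 100 ng/ml doxycycline at 24, 32 and 48 h, and at 0 h, giving 14 groups of 3 arrays, 42 arrays in all. There is 1 BMI1 hairpin line and 1 control hairpin line, and the labels only number the replicates, so p-values measure the spread between these arrays, which may be technical. The 3 Bmi1-shRNA 0 h arrays carry conflicting labels: their title gives no doxycycline, their characteristics give Bmi1-shRNA with doxycycline, and their source name gives the control hairpin. Each array reads bulk RNA, so a change in RNA per cell and a change in the share of cells that hold the RNA cannot be told apart.

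BMI1 is a subunit of Polycomb repressive complex 1 (PRC1). Together with a RING-type ubiquitin ligase subunit it places ubiquitin on a histone and helps keep developmental and cell cycle inhibitor genes silent. Genes that PRC1 represses directly can rise when BMI1 is lost, and many other genes can change downstream of them. Myeloma cells often express BMI1 at a high level.

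The BMI1 probe set, annotated to BMI1 and to the readthrough COMMD3-BMI1, checks the labels. Its signal was 139.8 to 234 on the 9 dosed Bmi1-shRNA arrays and 758.3 to 1128.8 on the 9 undosed ones. On the 21 Ctl-shRNA arrays it was 1117.2 to 1363.7. The log2 change with doxycycline, averaged over the 3 times, was -2.43 ± 0.06 (SE, limma adjusted p = 3.04e-28) in the Bmi1-shRNA line and 0.03 ± 0.06 in the Ctl-shRNA line. On the Bmi1-shRNA 0 h arrays BMI1 read 1009.3 to 1069.4, within the range of the undosed arrays of that line. This was below the Ctl-shRNA 0 h arrays (log2 difference -0.28 ± 0.10, limma adjusted p = 0.0398). Plasma cell markers were present on all arrays (XBP1 1854.2 to 2764.2, IRF4 963.7 to 1695.4, JCHAIN 6213.7 to 13715.2), except SLAMF7 at 0.8 to 18.3. Summed markers of T cells were 30 to 95.5 and of monocytes 25.9 to 82.6, those of fibroblasts 114.8 to 203.9 (COL1A1 82.6 to 144.4), and the 2 measured of 4 erythroid markers 26.9 to 76.1. The epithelial genes EPCAM (2481 to 3749.3) and KRT18 (1416.5 to 2513) were high in every group, CDH1 read 24.6 to 450.6, KRT8 28.8 to 61.9 and KRT19 0.7 to 8.8.

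The promoters of 4 member genes described array by array are shown, chosen after their values were seen: those of STS and SCML1, which had the highest ratios, and of NETO2 and NFIC. They are the 250 bases before and 50 bases after the start of the gene in RefSeq on GRCh38.p14, 5′ to 3′ on the gene's strand. STS lies at chrX:7147040-7147339 (+), SCML1 at chrX:17737243-17737542 (+), NETO2 at chr16:47143896-47144195 (-) and NFIC at chr19:3359380-3359679 (+). Capitals mark the CCAAT box (CCAAT, or ATTGG on the opposite strand) and the GC box (GGGCGG, or CCGCCC), which can overlap another GC box.
STS: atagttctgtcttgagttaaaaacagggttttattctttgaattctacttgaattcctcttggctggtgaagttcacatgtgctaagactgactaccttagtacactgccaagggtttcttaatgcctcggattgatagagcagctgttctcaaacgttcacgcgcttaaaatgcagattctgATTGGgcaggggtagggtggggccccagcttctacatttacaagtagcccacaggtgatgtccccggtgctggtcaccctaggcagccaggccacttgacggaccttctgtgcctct
SCML1: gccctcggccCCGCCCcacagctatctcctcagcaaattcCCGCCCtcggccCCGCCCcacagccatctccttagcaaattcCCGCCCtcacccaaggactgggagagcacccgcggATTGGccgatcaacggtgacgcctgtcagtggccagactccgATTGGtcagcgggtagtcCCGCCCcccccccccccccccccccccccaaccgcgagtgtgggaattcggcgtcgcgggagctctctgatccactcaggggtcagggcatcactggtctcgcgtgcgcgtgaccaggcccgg
NETO2: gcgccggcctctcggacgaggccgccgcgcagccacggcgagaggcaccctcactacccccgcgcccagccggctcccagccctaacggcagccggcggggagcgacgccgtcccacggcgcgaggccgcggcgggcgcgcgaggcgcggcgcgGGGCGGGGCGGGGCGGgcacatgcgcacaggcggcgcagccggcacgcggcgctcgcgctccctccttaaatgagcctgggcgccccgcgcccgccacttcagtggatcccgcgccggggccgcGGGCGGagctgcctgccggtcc
NFIC: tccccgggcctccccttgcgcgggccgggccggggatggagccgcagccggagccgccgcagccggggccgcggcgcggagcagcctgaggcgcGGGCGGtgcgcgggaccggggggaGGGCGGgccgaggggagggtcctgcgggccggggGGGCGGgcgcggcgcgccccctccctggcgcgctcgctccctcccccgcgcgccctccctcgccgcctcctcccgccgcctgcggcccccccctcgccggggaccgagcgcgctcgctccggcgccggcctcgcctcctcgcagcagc
The STS window held 1 CCAAT box and no GC box, with 48.3% G and C and 6 CpG dinucleotides. The SCML1 window held 2 CCAAT boxes and 5 GC boxes, and the windows of NETO2 and NFIC held 4 and 3 GC boxes and no CCAAT box. The NFIC window was 86.3% G and C, and that of NETO2 81.7% with 54 CpG dinucleotides. Over 27305 promoters in the table, 35.7% held a CCAAT box and 44.6% a GC box, and over the 6602 of genes with a probe set at 100 or more, 38.8% and 72.6% did. The letters of the cAMP response element (TGACGTCA), the AP-1 site (TGACTCA), the E-box (CACGTG) and the TATA box (TATAAA) were in none of these 4 windows. A match is a description of the letters only. A summary of base composition or motifs over the members would be void, because 24 of the 32 genes (75%) had an entry, under the 80% required.

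The joint level of the 38 probe sets separated the dosed Bmi1-shRNA arrays from the others, as the rule required for the doxycycline contrast. Each probe set was scaled to a mean of 0 and an SD of 1 over the 42 arrays and averaged. The mean z score was 0.53 ± 0.13 (SD, n = 3) at 24 h, 0.78 ± 0.08 at 32 h and 1.11 ± 0.20 at 48 h in dosed Bmi1-shRNA cells. In undosed cells of that line it was -0.77 ± 0.10, -0.59 ± 0.16 and -0.42 ± 0.18. The Ctl-shRNA groups lay between these, from -0.09 ± 0.17 to 0.11 ± 0.13. The undosed Bmi1-shRNA cells therefore stood below the control line and the dosed cells above it. The rule used both sets of arrays, so this is a description. The Bmi1-shRNA 0 h arrays, which the rule did not use, read -0.63 ± 0.07.

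**Figure D1:**
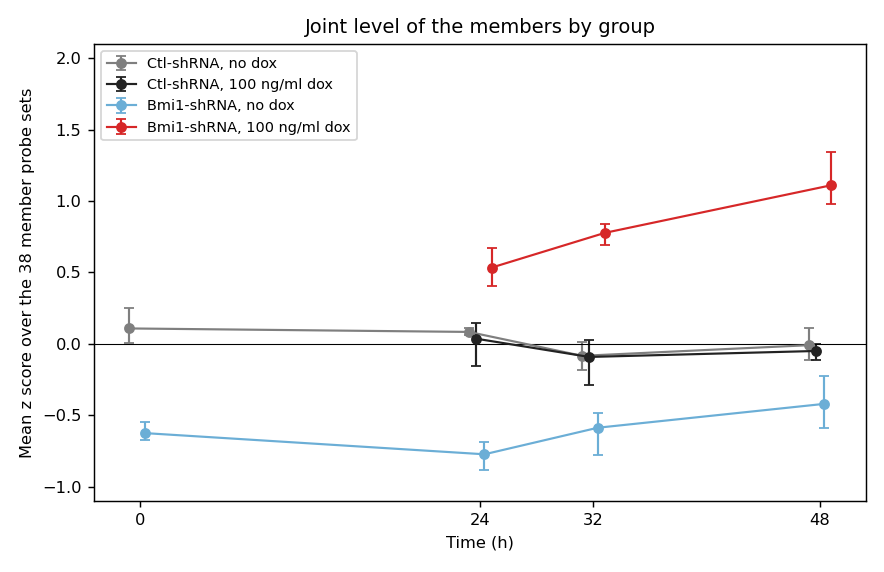
Mean z score of the 38 member probe sets (y axis) against time in hours (x axis) in the 4 line and dose combinations; points are means of 3 arrays and bars run from the lowest to the highest array. The dosed Bmi1-shRNA arrays rise from 0.53 at 24 h to 1.11 at 48 h. The undosed ones also rise, from -0.77 to -0.42, and the Ctl-shRNA groups lie near 0.

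The sizes were modest. The median over members of the mean dosed over undosed ratio was 1.31, with a lowest of 1.22 and a highest of 1.69, against a median of 1.01 over the 12699 probe sets at 100 or more. Only 3 of 38 probe sets, 2 of STS and that of SCML1, had a mean ratio of at least 1.5, and 0 reached 2. The median ratio was 1.28 at 24 h, 1.27 at 32 h and 1.32 at 48 h. In 21 of 38 the highest ratio came at 48 h, in 8 at 32 h and in 9 at 24 h. The ratio was higher at 48 h than at 24 h in 24 of 38 (63.2%), against 48.6% of all probe sets at 100 or more. It grew at both steps in 13 (34.2%), against 20.2% of all. Both counts are descriptions of the ratios the rule used. In the Ctl-shRNA line the median of the mean ratios was 0.99, with a lowest of 0.863 (ATP8B1) and a highest of 1.16 (CWC25). C1orf53 (1.14), RIT1 236223_s_at (1.13), PANK1 (1.13) and GAS2 (1.12) came next below CWC25. At single times the ratios in that line ran from 0.685 to 1.28. By the same limits turned round, 255 probe sets of 182 genes fell at all 3 times.

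**Figure D2:**
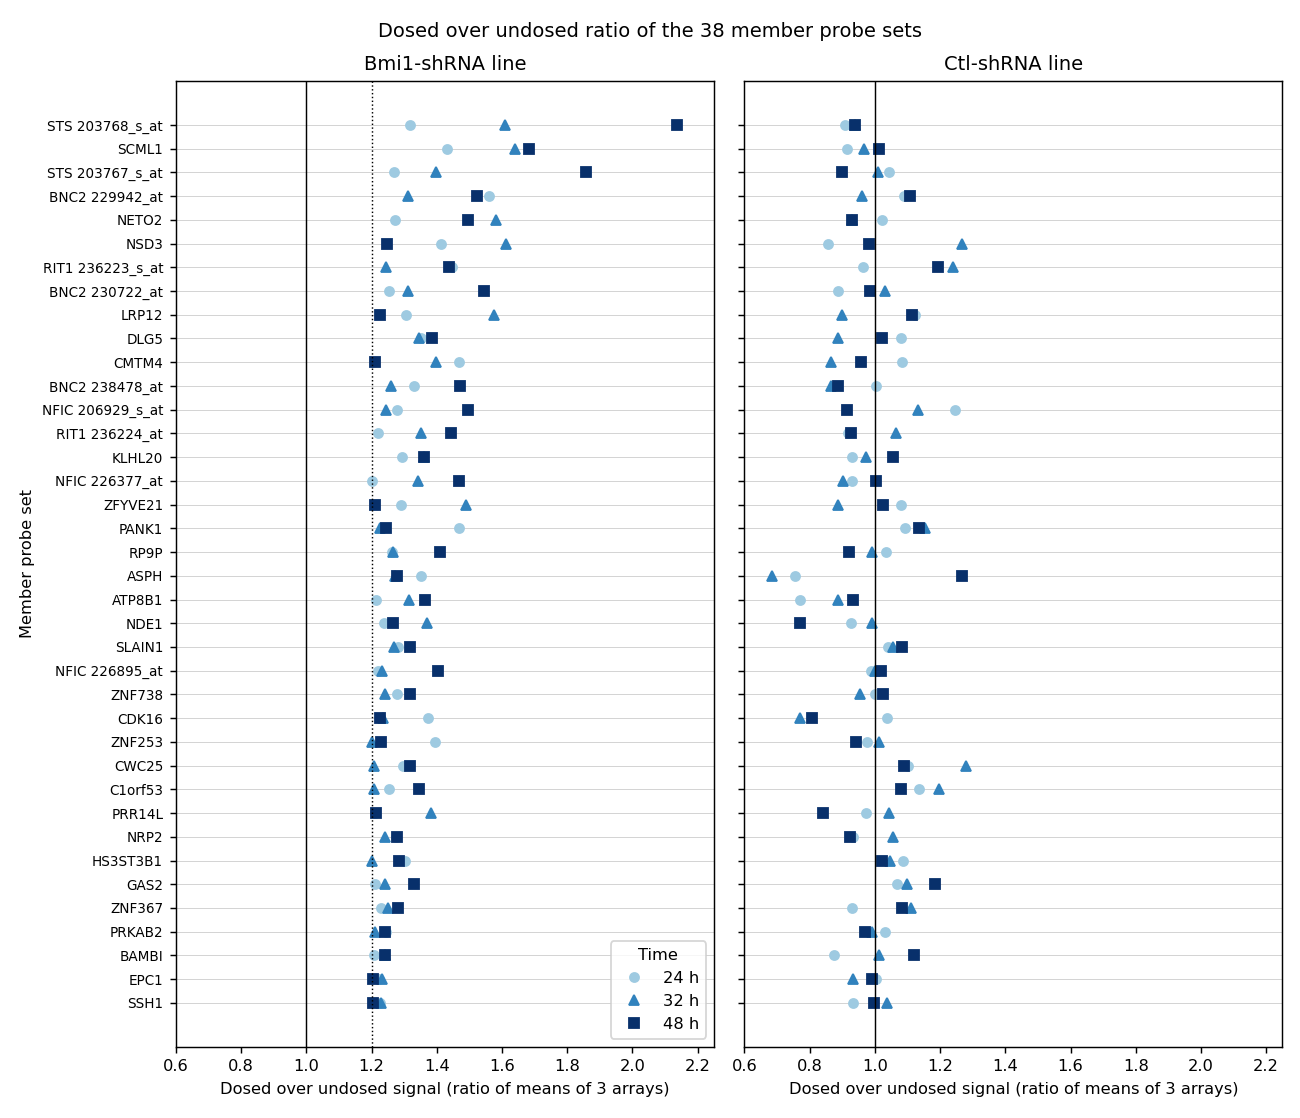
Ratio of the dosed to the undosed group mean (x axis) for each of the 38 member probe sets (y axis, ordered by mean ratio) at 24, 32 and 48 h, in the Bmi1-shRNA line (left) and the Ctl-shRNA line (right); the dotted line is the limit of 1.2. STS reaches 2.14 at 48 h, 3 probe sets have a mean ratio of at least 1.5, and the Ctl-shRNA ratios scatter around 1.

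All 9 dosed arrays read above all 9 undosed arrays of the Bmi1-shRNA line in 10 of 38 member probe sets: both of STS, those of SCML1, NETO2, DLG5, KLHL20 and ASPH, RIT1 236224_at, and NFIC 226377_at and 226895_at. Of the 12699 probe sets at 100 or more, 0.346% did so. The selection used this contrast, so the count is a description. In the Ctl-shRNA line 0 of 38 did so, and 1 of the 12699 did. The rule also held the mean control ratio near 1.

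To read probe sets on arrays that had no part in choosing them, the same rule was applied to each pair of replicate numbers and the chosen probe sets were read on the arrays with the remaining number. Without replicate 1 the rule chose 38 probe sets, without replicate 2 it chose 82 and without replicate 3 it chose 50. Their median mean ratio was 1.32, 1.37 and 1.31 on the arrays that chose them. On the arrays left out it was 1.19, 1.13 and 1.11, where all probe sets at 100 or more had medians of 1.01, 1.02 and 1.01. The left-out arrays thus gave ratios above those of all probe sets, but nearer to 1 than the choosing arrays gave. On the left-out arrays 27 of 38 (71.1%), 32 of 82 (39%) and 22 of 50 (44%) were above 1 at all 3 times, against 20.4%, 19.3% and 17.2% of all probe sets. The limit of 1.2 was met there at all 3 times by only 9 of 38, 4 of 82 and 3 of 50. The share of all probe sets at this limit was not taken. Of the chosen probe sets, 20, 26 and 17 were members.

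**Figure D3:**
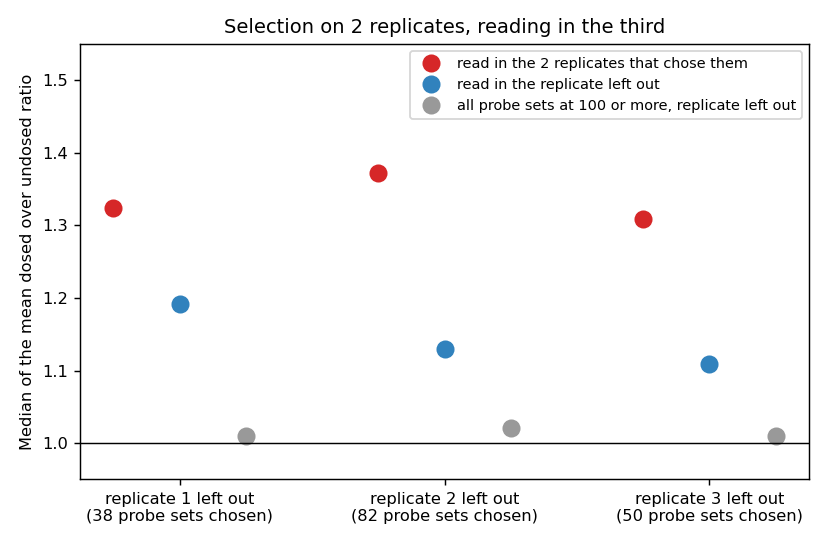
Median of the mean dosed over undosed ratio in the Bmi1-shRNA line (y axis) of probe sets chosen on 2 replicate numbers, for each replicate number left out (x axis); red is the reading in the choosing replicates, blue in the replicate left out, and grey all probe sets at 100 or more in the replicate left out. Blue points lie at 1.19, 1.13 and 1.11, between the red points (1.31 to 1.37) and the grey points (1.01 to 1.02).

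Of the 38 members, 8 were chosen again with each of the 3 replicates left out: those of SCML1, NETO2, DLG5, KLHL20, ASPH and ZNF738, STS 203767_s_at and BNC2 229942_at. Another 12 were chosen in 2 of the 3 and 15 in 1. The 3 probe sets of PANK1, C1orf53 and EPC1 were chosen in 0 of the 3. Near the limit, the members with the smallest lowest ratio were ZNF253 (1.2005), NFIC 226377_at (1.2011) and HS3ST3B1 (1.2021). RDX (1.1998), GNG12 (1.1994) and NRSN2-AS1 (1.1988) fell just short. NACA4P, RIOK3 and FTX met the signal and ratio limits but had Ctl-shRNA ratios of 0.763, 0.847 and 0.804, under the lower limit.

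Among the chromatin genes, SCML1, a human relative of the Polycomb group gene Sex comb on midleg, had the highest ratio. Its signal in dosed Bmi1-shRNA cells was 310.8, 261.9 and 283.2 at 24 h, 284.5, 255.8 and 325.1 at 32 h and 332.2, 324.9 and 353 at 48 h. In undosed cells it was 190.3, 226.3 and 181.7, then 171, 176.7 and 179.5, then 199.2, 182.8 and 218.5. The groups did not overlap: the lowest dosed array stood above the highest undosed one. The ratio was 1.43, 1.64 and 1.68 at the 3 times, and the log2 difference over them 0.65 ± 0.06 (SE). On the Ctl-shRNA arrays the signal was 225.7 to 260.3 with doxycycline and 229.1 to 281 without. The dosed Bmi1-shRNA level was thus 1.24 times the dosed control level, and the undosed level 0.757 times the undosed one. EPC1, a homologue of Drosophila Enhancer of Polycomb and a subunit of a histone acetyltransferase complex, had ratios of 1.22, 1.23 and 1.204. A further EPC1 probe set at 100 or more had a mean ratio of 1.16. NSD3, a histone methyltransferase, had 1.41, 1.61 and 1.25 on a dim probe set (dosed median 130.1). The 3 brighter NSD3 probe sets did not show this, with mean ratios of 1.03, 1.04 and 0.782.

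The transcription factor NFIC was read by 3 member probe sets. The brightest, 226895_at, gave 1103.4, 1039.2 and 939.8 in dosed cells at 24 h, 1009.5, 1049.2 and 1091.1 at 32 h and 1271.7, 1302 and 1148.7 at 48 h. Undosed cells gave 883.5, 794.5 and 849.5, then 926.5, 787.5 and 842.6, then 872.7, 843.8 and 932.7. The lowest dosed array (939.8) was just above the highest undosed array (932.7), and the 48 h arrays were the highest. The 3 probe sets had mean ratios of 1.29, 1.34 and 1.34, and the dosed level of 226895_at equalled 1.02 times that of the dosed control line. A further NFIC probe set, 213298_at, dimmer than the limit, had a mean ratio of 1.01. BNC2 (basonuclin 2, a zinc finger protein) also had 3 member probe sets, with mean ratios of 1.47, 1.37 and 1.35, dosed arrays of 96.2 to 343.6 and some overlap with undosed arrays in each. Its 2 other probe sets at 100 or more had mean ratios of 1.176 and 1.06. Of the zinc finger genes, ZNF738 had ratios of 1.28, 1.24 and 1.32, ZNF253 of 1.40, 1.2005 and 1.23, and ZNF367 of 1.23, 1.25 and 1.28. Probe sets ending in x_at, as those of ZNF367, ATP8B1 and RP9P, can bind several transcripts, so their gene is uncertain.

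Among enzymes, STS (steroid sulfatase, which removes sulfate from steroid sulfates such as estrone sulfate) had the highest ratio of any member. On 203768_s_at the dosed signal was 234.2, 209.5 and 263.4 at 24 h, 291.7, 230.4 and 259.4 at 32 h and 295.5, 321.9 and 309.2 at 48 h. The undosed signal was 192, 195.1 and 149.6, then 164.2, 154.1 and 167.5, then 122.4, 133 and 178.4. The dosed means were higher at each later time and the undosed means lower, and the ratio went from 1.32 through 1.61 to 2.14. The second member probe set, 203767_s_at, had ratios of 1.27, 1.40 and 1.86, with 678.7, 661.7 and 646.6 on the dosed 48 h arrays against 349.3, 377.7 and 342 undosed. A further probe set that missed the limit at 24 h (203769_s_at) had 1.16, 1.40 and 1.74. In the Ctl-shRNA line 203768_s_at read 172.6 to 341.9 with doxycycline and 208.9 to 314.7 without. The dosed Bmi1-shRNA mean over the 3 times was 1.09 times the dosed control mean on this probe set, and 1.01 times on 203767_s_at.

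The other enzymes had lower mean ratios. PANK1, which starts coenzyme A synthesis, had ratios of 1.47, 1.23 and 1.25, and PRKAB2, a regulatory subunit of AMP-activated kinase, 1.24, 1.21 and 1.24. ASPH, an aspartate beta-hydroxylase, had 1.35, 1.27 and 1.28, with 127.9 to 155.9 on dosed and 93.9 to 121.4 on undosed arrays. Its 8 further probe sets were all under the signal limit. HS3ST3B1, a heparan sulfate sulfotransferase, had 1.30, 1.202 and 1.28. ATP8B1, a phospholipid flippase, had 1.21, 1.32 and 1.36 with a widely spread dosed signal (109.8 to 259.1).

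Of the membrane and receptor genes, NETO2, an auxiliary subunit of kainate receptors, had the highest mean ratio. The dosed signal was 508.5, 488.2 and 490.1 at 24 h, 588.8, 504.7 and 565.4 at 32 h and 548.3, 542.2 and 536.9 at 48 h. The undosed signal was 385.7, 369.2 and 413, then 366, 371.3 and 311.6, then 365.6, 346.9 and 375.4. No dosed array overlapped an undosed one. The dosed Bmi1-shRNA arrays (488.2 to 588.8) overlapped the Ctl-shRNA arrays with doxycycline (492.2 to 643.3). At 24 h the dosed Bmi1-shRNA mean was lower than the dosed control mean, 495.6 against 603.7. The ratios were 1.27, 1.58 and 1.496, and a further NETO2 probe set, 222774_s_at, had 1.14, 1.27 and 1.47. NRP2 (neuropilin 2, a co-receptor for semaphorins and vascular growth factors) had 1.28, 1.24 and 1.28, and its 3 further probe sets at 100 or more had mean ratios of 1.07, 1.16 and 1.02. LRP12, of the low-density lipoprotein receptor family, had 1.31, 1.58 and 1.23. BAMBI, a pseudoreceptor that dampens TGF-beta signalling, had 1.21, 1.24 and 1.24, and CMTM4, a MARVEL-domain membrane protein, 1.47, 1.40 and 1.21.

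In the signalling and cytoskeleton genes, 3 had groups that did not overlap. KLHL20, an adaptor of a cullin ubiquitin ligase, read 137.8 to 167.4 dosed against 93.3 to 132.2 undosed, with ratios of 1.29, 1.36 and 1.36. Another KLHL20 probe set, 204176_at, had a mean ratio of 1.45 and missed the limit by its 32 h ratio of 1.1987. DLG5, a scaffold of cell polarity, read 100.4 to 128.1 dosed and 68.6 to 96.8 undosed, with ratios of 1.35, 1.35 and 1.38. RIT1, a Ras-like GTPase, had ratios of 1.22, 1.35 and 1.44 on 236224_at and 1.45, 1.25 and 1.44 on 236223_s_at, and its brightest probe set, 209882_at, a mean ratio of 1.12. The remaining genes of this kind had mean ratios of 1.22 to 1.33. They were ZFYVE21 (an endosomal FYVE-domain protein), NDE1 (a dynein regulator at the centrosome), SLAIN1 (a microtubule end protein), CDK16 (a cyclin-dependent kinase), GAS2 (a microfilament-associated caspase substrate) and SSH1 (a phosphatase that activates cofilin). The 3 further NDE1 probe sets at 100 or more had mean ratios of 0.995, 0.843 and 1.12, and those of CDK16 had 1.18 and 1.12. The last 4 genes were CWC25, a splicing factor (mean ratio 1.27), C1orf53 (1.27), PRR14L (1.27) and the pseudogene RP9P (1.31). Brighter probe sets of CWC25 and RP9P had mean ratios of 1.13 and 1.04.

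**Figure D4:**
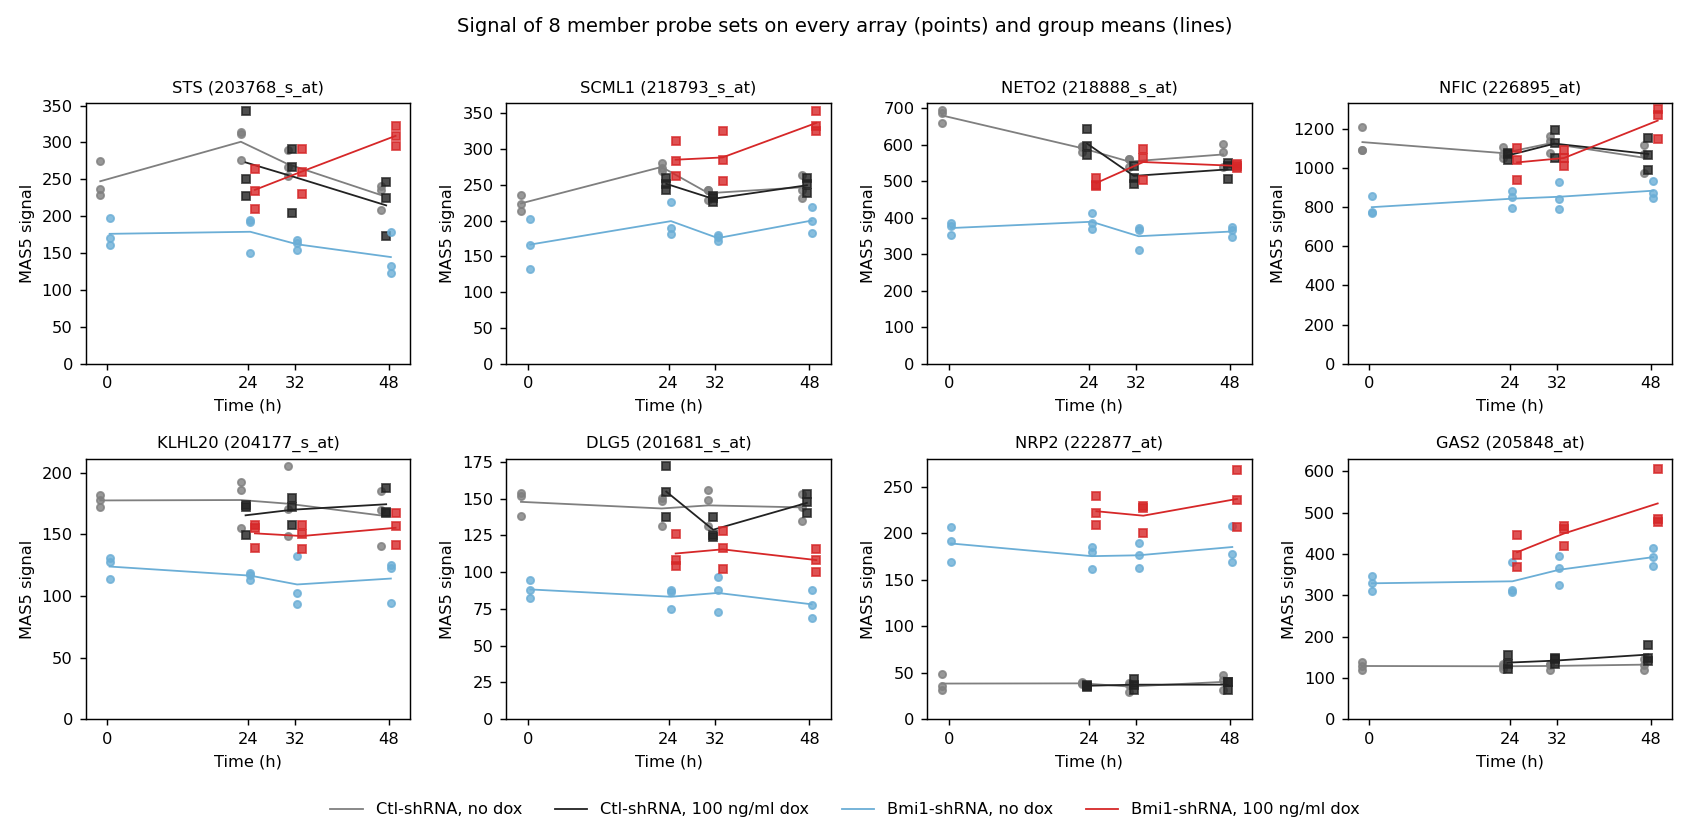
MAS5 signal (y axis, from 0) against time in hours (x axis) on every array (points) with group means (lines) for 8 member probe sets, in both lines with and without 100 ng/ml doxycycline. Dosed Bmi1-shRNA group means (red) stand above undosed ones (blue) at each time, as the rule required. For STS, SCML1 and NFIC the dosed mean at 48 h stands above both Ctl-shRNA means (grey and black), and for NETO2 between them. At 24 h the dosed means of STS, NETO2 and NFIC stand below both Ctl-shRNA means. NRP2 and GAS2 are above the Ctl-shRNA arrays in every Bmi1-shRNA group.

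Probe sets of member genes that the rule did not choose gave a further reading of the same genes on the same arrays. There were 70 such probe sets in 27 of the 32 genes, and 24 of them, in 15 genes, reached the signal limit. Their median mean ratio was 1.13, against 1.01 for all probe sets at 100 or more. The ratio was above 1 at all 3 times in 14 of 24 (58.3%), against 24.2% of all. A total of 7 probe sets of 7 genes had a mean ratio of at least 1.2: those of STS, KLHL20, CMTM4, LRP12, NETO2, RIT1 and ZNF253. For 17 member genes no further probe set reached the limit. These probe sets were read on the arrays that chose the members, and no test was run on them.

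Another baseline came from the Bmi1-shRNA arrays at 0 h, which the rule had not used. The dosed mean over 24 to 48 h was above the 0 h mean in 35 of 38 members, against 53.9% of all probe sets at 100 or more, with a median ratio of 1.34 against 1.01. The dosed arrays in this ratio are still those that chose the members. The 3 exceptions were LRP12 (0.907), RP9P (0.993) and C1orf53 (0.793). The undosed mean was below the 0 h mean in 18 of 38, against 49.9% of all, with a median ratio of 1.01. The labels of these arrays conflict, as given above.

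Before induction the members already differed between the lines, and this comparison used arrays outside the rule. At 0 h, 16 of 38 probe sets of 13 genes were lower in the Bmi1-shRNA line, 7 of 7 genes were higher, and 15 did not pass the test (limma, Benjamini-Hochberg adjusted p under 0.05 over 35232 probe sets). Over all probe sets tested, 10.7% were called lower and 10.2% higher. Among the 12699 probe sets at 100 or more, 17.4% were called lower and 19.1% higher. The share of members lower, 42.1%, thus stood above that of bright probe sets, and the share higher, 18.4%, beside it. The median log2 difference was -0.20 over members and -0.02 over all. All statements on the Bmi1-shRNA line at 0 h rest on the 3 arrays with conflicting labels.

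NETO2 had the largest deficit, with 385.1, 377.3 and 353.8 in the Bmi1-shRNA line against 694.6, 688.2 and 659.8 in the Ctl-shRNA line (log2 difference -0.86 ± 0.07 SE, limma adjusted p = 2.77e-13). SLAIN1 read 97.5, 77.9 and 107.8 against 157.9, 187.2 and 162.6 (-0.82 ± 0.15, adjusted p = 6.18e-05). DLG5 read 87.9, 82.3 and 94.5 against 153.9, 137.9 and 151.6 (-0.71 ± 0.11, adjusted p = 4.17e-06). None of these groups overlapped. STS 203767_s_at followed with -0.67 ± 0.06 (adjusted p = 7.49e-11) and NFIC 206929_s_at with -0.67 ± 0.17 (adjusted p = 0.0025). SCML1, EPC1, KLHL20, ZFYVE21, PRKAB2, PRR14L, C1orf53 and RIT1 236224_at were also called lower, at -0.55 to -0.35, and so were the remaining probe sets of STS and NFIC, at -0.50 to -0.30. The second RIT1 probe set, 236223_s_at, gave -0.35 ± 0.15 and did not pass (adjusted p = 0.0962).

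The signal limit of 100 applied to the Bmi1-shRNA line alone, which favours members that are high there. Of the 7 called higher, 5 (NRP2, ASPH, LRP12, NSD3 and HS3ST3B1) had a Ctl-shRNA 0 h mean under 100, against 0 of the 16 called lower, so the filter bears on their test and their count is a description. NRP2 stood furthest above the control line, with 206.8, 169 and 191.3 against 35.3, 48.2 and 31.5 (log2 2.17 ± 0.14, limma adjusted p = 3.47e-15). ASPH read 123.6, 121.6 and 127.5 against 46.3, 48.3 and 35.7 (1.42 ± 0.17, adjusted p = 1.69e-08). GAS2 read 329, 311.5 and 346.3 against 118.1, 128.9 and 139.3 (1.32 ± 0.10, adjusted p = 1.06e-12). LRP12 differed by 1.18 ± 0.16 (adjusted p = 2.05e-07) and NSD3 by 0.73 ± 0.20 (adjusted p = 0.00541). HS3ST3B1 (0.67 ± 0.19, adjusted p = 0.00714) and BAMBI (0.30 ± 0.09, adjusted p = 0.0135) were the other members called higher. Without the third Ctl-shRNA 0 h array NSD3 was no longer called (log2 0.54, adjusted p = 0.072, the highest over its 14 alternatives, of which the lowest was 0.00292).

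**Figure D5:**
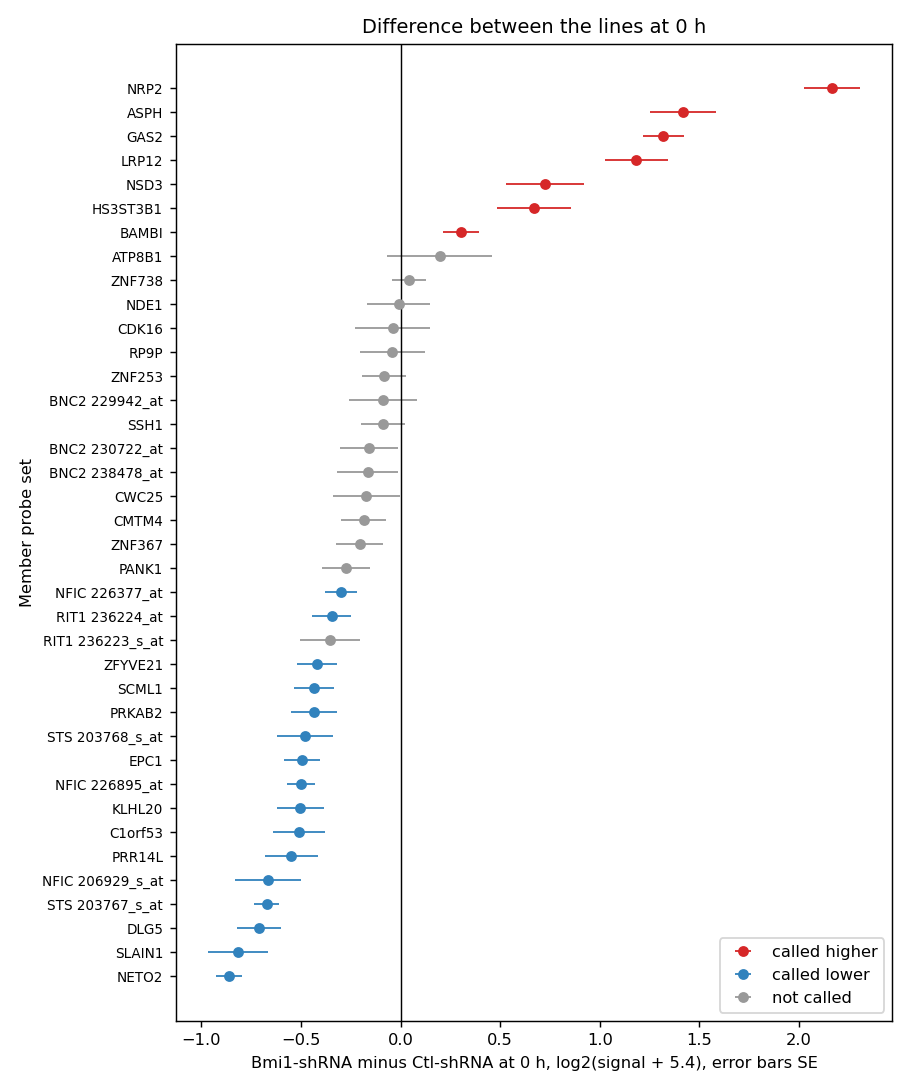
Difference between the Bmi1-shRNA and Ctl-shRNA lines at 0 h in log2(signal + 5.4) (x axis, bars are SE, 3 arrays per line) for the 38 member probe sets (y axis), coloured by the limma call. NRP2, ASPH, GAS2 and LRP12 lie above 1, and NETO2, SLAIN1 and DLG5 lie below -0.7.

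On the undosed arrays at 24 to 48 h, 29 of 38 members were below the Ctl-shRNA mean (51.6% of all probe sets at 100 or more were). The rule divided by the undosed Bmi1-shRNA means, which favours members that read low on these arrays, so the count is a description. The 7 genes called higher at 0 h were above the control in the undosed groups too. The ratio of 3′ to 5′ GAPDH probe set signal, a measure of RNA integrity, was 0.883 to 0.975 in dosed, 0.906 to 0.973 in undosed and 0.915 to 0.945 in 0 h Bmi1-shRNA arrays, and 0.948 to 1.12 in undosed Ctl-shRNA arrays. It moved with the line, and its part in the line difference was not tested. The summed epithelial markers also differed, 6399.7 to 6585.9 on the Bmi1-shRNA 0 h arrays against 5258.3 to 5587.6 on the Ctl-shRNA ones, and their part was not tested.

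Without doxycycline in the Ctl-shRNA line, 0 of 38 members were higher and 4 were lower at 48 h than at 0 h (limma, same threshold). Over all 35232 probe sets 1.97% were higher and 1.59% lower, and among the bright ones 3.53% and 3.56%. The share of members lower, 10.5%, stood above these shares and rests on 4 probe sets. The 48 h arrays also entered the control limit of the rule, and the 0 h arrays are those of the line comparison. C1orf53 read 320.8, 347.4 and 301.7 at 0 h and 212.1, 194.8 and 151.1 at 48 h (log2 -0.79 ± 0.13, limma adjusted p = 0.000106). BAMBI (-0.35 ± 0.09, adjusted p = 0.0211), ZNF738 (-0.32 ± 0.09, adjusted p = 0.0269) and NETO2 (-0.25 ± 0.07, adjusted p = 0.0232) were lower as well. With only the 0 h and 48 h groups in the fit, 1 member was called. Leaving out Ctl-shRNA 48 h array 3 or 0 h array 1 also left 1, and leaving out 0 h array 3 left 2. C1orf53 was called under all 15 alternatives, whereas BAMBI, ZNF738 and NETO2 had adjusted p of up to 0.236, 0.193 and 0.181. At an unadjusted p under 0.05, 2 members were higher and 9 lower. The share of all probe sets at that threshold was not taken, so these counts have no background beside them. The alternatives that read the 38 members called 0 higher. The fit with the brightest probe set per gene, which for some genes is not a member probe set, called 2 of 32 higher.

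The member genes were looked up on 19 gene lists, some of them markers of other cell types. The lists are short, with 4 to 35 genes each, and no share over all genes was taken. An absence from a list therefore says little about the members. SCML1 was the only member on the PRC1 list, and BAMBI the only member on the list for TGF-beta and BMP signalling, while the other 17 lists, among them PRC2, plasma cell identity, apoptosis, interferon and stress genes, held 0 members. The rule had set some genes of such kinds aside by name, and the lists do not hold them. Among these BCL2L11, a proapoptotic gene, met the limits, with mean ratios of 1.28 and 1.32. With doxycycline in the Bmi1-shRNA line, 2 of 23 other measured PRC1 genes rose and 1 fell, where 2.44% of all probe sets rose and 3.39% fell. RING1, a ubiquitin ligase subunit of PRC1, changed by log2 0.11 ± 0.03 (limma adjusted p = 0.0421) and AUTS2, a subunit of a variant PRC1, by 0.25 ± 0.04 (adjusted p = 7.38e-05). PCGF3, a paralogue of BMI1 in other PRC1 variants, changed by -0.51 ± 0.10 (adjusted p = 0.000903). SCML2, the paralogue of SCML1, gave 0.02 ± 0.15 (adjusted p = 0.978). The median over the 23 was 0.07, against 0.03 over all probe sets. At 0 h PCGF2 and PCGF5 were higher in the Bmi1-shRNA line and CBX7, RYBP and AUTS2 lower, that is 2 and 3 of 23, where 10.2% of all probe sets were higher and 10.7% lower. By limma 0 of 23 changed with time in the control line. At an unadjusted p under 0.05, 2 were higher and 1 lower, and the share of all probe sets at that threshold was not taken.

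Of 20 measured TGF-beta and BMP genes other than BAMBI, 1 rose with doxycycline, the receptor ACVR1 (log2 0.26 ± 0.06, limma adjusted p = 0.00297). The receptor TGFBR1 (-0.15 ± 0.04, adjusted p = 0.00951), the shared mediator SMAD4 (-0.40 ± 0.05, adjusted p = 8.71e-08) and the target ID2 (-0.16 ± 0.04, adjusted p = 0.0049) fell, where 2.44% of all probe sets rose and 3.39% fell. At 0 h 10 of the 20 were higher in the Bmi1-shRNA line, TGFBR1 by 1.74 ± 0.07 (adjusted p = 4.20e-22), and 1 was lower, where 10.2% of all probe sets and 19.1% of the bright ones were called higher.

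The members did not all follow the same course over the 42 arrays. The correlation of a probe set with the mean z score, to which each member contributes, was highest for SCML1 (Pearson r = 0.86), RIT1 236224_at (0.80) and CMTM4 (0.78). It was lowest for NRP2 (0.11), ASPH (0.16), C1orf53 (0.16), GAS2 (0.18) and LRP12 (0.20), of which all but C1orf53 were called higher at 0 h. The single-symbol probe sets outside the members with the highest r were TNRC6A 224705_s_at (0.79), DDX3Y 205000_at (0.79) and STS 203769_s_at (0.75). The dosed ratios of TNRC6A were 1.29, 1.16 and 1.46, so it missed the limit at 32 h. These arrays share groups, and the values are descriptions.

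The member genes spanned a median of 67665 bases in RefSeq, from 4733 (C1orf53) to 461168 (BNC2), against a median of 30083 over 7840 genes with a probe set at 100 or more, of which the middle 90% spanned 3275 to 216433. STS, SCML1 and CDK16 lie on the X chromosome. BAMBI and EPC1, and ZNF253 and ZNF738, lie within 5 Mb of each other.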

How the data were processed

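The authors deposited an intensity for every probe set on each array, a MAS5 signal on a linear scale, per the submitters' processing notes, which give no version. Array means after 2% trimming of both ends lay at 150.02 to 150.03, so arrays share a target. Precision is limited by having 3 arrays in a group.

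The members, the gene lists and the rule for named genes were chosen with earlier results of these data known. Named were BMI1, members with the highest ratios, non-overlapping groups, several probe sets or a place on a list, those at the limit and the extremes of each test; the others were named by known role after their values were seen. Symbols came from the platform annotation, updated through RefSeq.

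Ratios are of linear group means. For tests, probe sets at or above the array's median on at least 3 of 42 arrays (35232, without 62 controls) were fitted as log2(signal + 5.4), with 5.4 taken from the 25th percentile over the table. Limma 3.58.1 in R 4.3.3 fitted 14 group means with an intensity trend (28 residual and 8.41 prior degrees of freedom; two-sided; adjusted p under 0.05), checked on simulated data. Differences with doxycycline in members carry an SE and no p, because the rule used them. Alternatives were other pseudocounts, filters, normalizations and averages, no trend, the brightest probe set per gene, fewer groups, the replicate block and each array left out.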

Additional observations from a re-analysis of the deposited data

How the results depend on the processing

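The line difference at 0 h called 23 of 38 members, 16 lower and 7 higher, where 17.4% and 19.1% of the bright probe sets were called. The signal limit favours the higher ones, as given above. Every alternative with all 38 called 21 to 23, and leaving out single arrays gave 21 to 23. With the brightest probe set per gene, which for some genes is not a member probe set, 18 of 32 were called. The control time comparison called 4, and 4 or 5 under other pseudocounts, filters, quantile normalization or no trend. With the brightest probe set per gene, not always a member probe set, it called 6 of 32. It called 1 when only its 2 groups were fitted, and 1 to 4 when single arrays were left out, where fewer arrays carry the estimate. Without the Bmi1-shRNA 0 h arrays, an alternative chosen after seeing the data, it called 4. With the replicate block the counts were 23 and 4. Replicate numbers did not pair arrays: deviations correlated at a mean r of 0.000986 for the same number and -0.000491 for different numbers.

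The rule found 27 probe sets after quantile normalization (26 of them members), 41 with geometric means (35 members) and 46 with medians (20 members). It found 38 to 82 without 1 replicate number, the 82 without replicate 2. The median of the mean ratios was 1.30 to 1.37 under these settings, and 1.19, 1.13 and 1.11 when the 38, 82 and 50 probe sets chosen without replicate 1, 2 or 3 (20, 26 and 17 of them members) were read in that replicate alone, since the choosing arrays no longer enter the ratio. The number of arrays limits what single probe sets near a signal of 100 resolve.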
